A study of Mus musculus with 15 samples.

Results

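The genes described here are the steroid receptors of the mouse mammary gland and the genes that mark or serve its hormone-sensing luminal cells: Esr1, Pgr, Cited1, Foxa1, Areg, Wnt4 and Tnfsf11. They were chosen by name, by taking all probe sets (groups of short array oligonucleotides read as a single value) whose only gene symbol in the platform annotation was a member. Of the 7 genes named, 6 were measured, by 7 of the 20380 probe sets with a single symbol, and they are 6 of the 12393 genes in all. Areg was not analysed here, since no probe set carried its symbol alone. The study measured transcripts of mammary epithelial cells on 15 Affymetrix arrays. The cells were purified from digested glands of female C57BL/6 mice, and every mouse had an injection into the peritoneum. The injection was PBS (the control), 5-azacytidine (AzaC), an inhibitor of DNA methylation, or valproic acid (VPA), an inhibitor of histone deacetylases. Mice labelled virgin were 9 weeks old, with 2 PBS, 3 AzaC and 2 VPA arrays, and mice labelled pregnant were at day 21, with 2 PBS, 3 AzaC and 3 VPA arrays. The sources used here give no dose, injection schedule or age of the pregnant mice, nor whether each replicate was its own mouse or a pool of glands. The p-values therefore measure the spread between these samples, which may be technical, and the number of arrays limits the precision.

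Oestrogen acts in the mammary gland through the receptor Esr1, and progesterone through Pgr, whose gene is itself switched on by oestrogen signalling. Both receptors sit in a minority of luminal cells, the hormone-sensing cells, which pass the signal on by secreting amphiregulin (Areg), Wnt4 and RANKL (the product of Tnfsf11) to neighbouring luminal and basal cells. Foxa1 opens chromatin for Esr1, and Cited1 is a transcriptional coregulator of Esr1 that is needed for full ductal growth.

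The array medians lay between 7.22 and 7.47 on the deposited scale, which was taken as log2, and all levels and differences below are on that scale. The difference between the 3' and 5' Gapdh control probe sets, a measure of RNA degradation, lay between -0.17 and 1.23, with the highest value in virgin PBS replicate 2. Epithelial markers were high in every group: the mean level of 6 luminal markers (keratins 8, 18 and 19, Epcam, Cdh1, Cldn3) lay between 11.31 and 12.85 over the arrays. No marker of any cell type list was listed at 0, and the mean of 6 fibroblast markers still lay between 9.19 and 11.52. The stage labels were set against milk protein genes, and β-casein (Csn2) had the same mean level of 13.74 in both PBS groups, ± 0.08 (SD, n = 2) under the virgin and ± 0.07 (SD, n = 2) under the pregnant label. With PBS, the milk genes Wap and Lalba had means of 13.68 and 14.11 under the virgin and 13.66 and 14.16 under the pregnant label. Whether the arrays still resolve differences between such bright signals was not tested. The stage is therefore given below as a label. In these bulk samples, fewer cells of a type and less RNA per cell cannot be told apart.

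**Figure D1:**
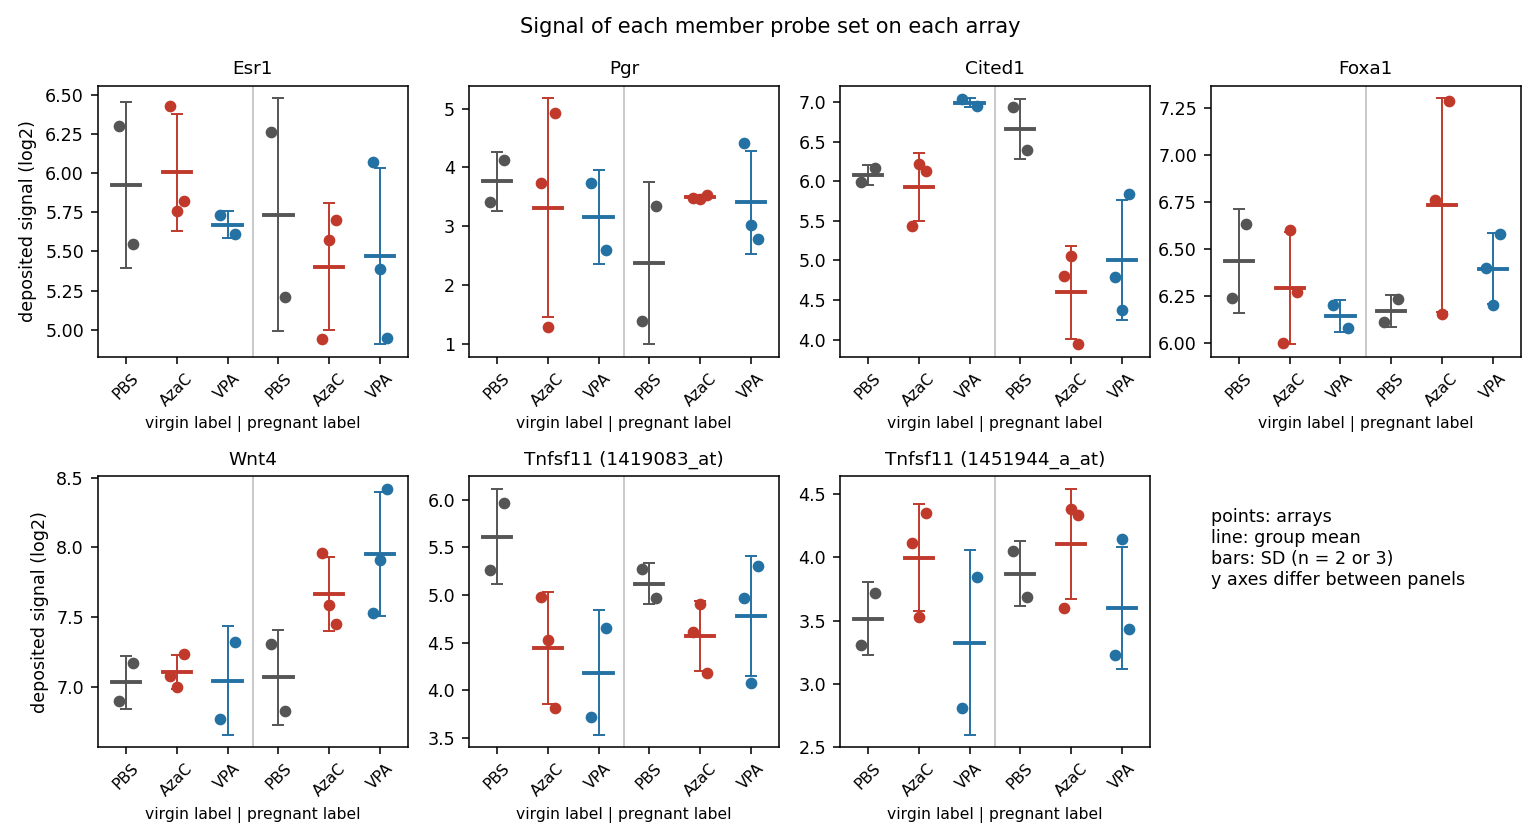
Deposited log2 signal (y axis, different in each panel) of each measured member probe set on each array, by label and injection (x axis). Points are arrays, lines group means and bars SD (n = 2 or 3). Cited1 lay between 3.94 and 5.84 on the 6 drug arrays labelled pregnant, below its values of 6.93 and 6.39 on the PBS arrays of that label.

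Most of these genes gave dim signals. Esr1, Pgr, Cited1, Foxa1 and both Tnfsf11 probe sets were below the array median on 15 of 15 arrays, and Wnt4 on 7. Pgr, the dimmest gene, ranked between the percentiles 3.5 and 21.3 of the probe sets of an array, and Esr1 between 21.1 and 37.5. Foxa1 ranked between 32.5 and 47.1, and Wnt4 between 41.5 and 64. Cited1 ranked between 13.5 and 45.1, and on the drug arrays labelled pregnant between 13.5 and 30.6. The deposited values carry no detection calls, so whether the dimmest signals lay above the array's own background is not known. The spread between replicates was widest for Pgr, with an SD within groups of 1.12, against 0.31 for Wnt4.

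Among the measured members, Cited1 changed in the 2 drug comparisons under the pregnant label, where it fell with both AzaC and VPA. The other members passed the test in none of the 4 comparisons of a drug with PBS. Changes were called at an adjusted p under 0.05 (limma, two-sided, Benjamini-Hochberg over all 12393 genes). Under the pregnant label 1 of 6 members was called with AzaC, where 7.57% of all genes were called, and 1 of 6 with VPA, where 5.98% were called. Under the virgin label limma called 0 of 6 members with AzaC, where 0% of all genes were called, and 0 of 6 with VPA, where 0.00807% were called. At an unadjusted p under 0.05, 1 of 6 members, Tnfsf11, passed in each of those virgin comparisons, among 849 genes of all with AzaC and 851 with VPA. The AzaC and VPA comparisons share their PBS arrays, so their values are given side by side and are not independent of each other. The median change of the members was 0.12 with AzaC and -0.02 with VPA under the pregnant label, beside 0.04 and 0.06 over all genes. Under the virgin label it was -0.15 and -0.27, beside 0.06 and 0.04.

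**Figure D2:**
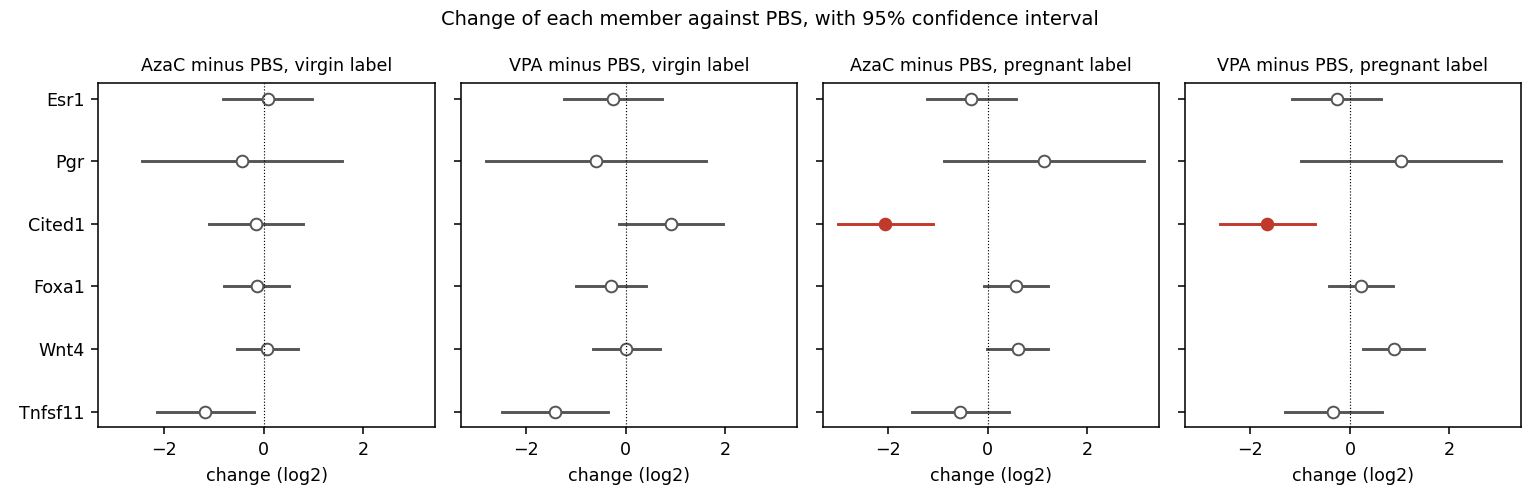
Change of each measured member against PBS (x axis, log2) in the 4 drug comparisons, with its 95% confidence interval from limma. Filled red points mark an adjusted p under 0.05. Cited1 under the pregnant label, at -2.06 with AzaC and -1.66 with VPA, is the filled point of each of those panels.

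Cited1 and Wnt4 are the members whose values separated the drug arrays from the PBS arrays for both drugs under the pregnant label. Such separation was common, at 44.4% of all genes with AzaC and 43.3% with VPA, and the share for both drugs at once was not counted. The Cited1 and Wnt4 sequences just before the transcription start are shown because they differ widely in CpG, the dinucleotide at which DNA is methylated. The 250 bases come from RefSeq promoter windows of GRCm38.p6, are written 5' to 3' on the strand of the gene, and have each CG in capitals. For Cited1, on the minus strand at chrX:102252182-102252431, the stretch is that of the first of 3 annotated windows. For Wnt4 it lies on the plus strand at chr4:137277385-137277634.
Cited1: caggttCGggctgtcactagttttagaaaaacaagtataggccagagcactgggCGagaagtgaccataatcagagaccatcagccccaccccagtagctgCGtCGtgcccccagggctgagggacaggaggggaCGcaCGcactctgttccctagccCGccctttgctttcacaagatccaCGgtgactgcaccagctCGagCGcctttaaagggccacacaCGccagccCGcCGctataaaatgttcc
Wnt4: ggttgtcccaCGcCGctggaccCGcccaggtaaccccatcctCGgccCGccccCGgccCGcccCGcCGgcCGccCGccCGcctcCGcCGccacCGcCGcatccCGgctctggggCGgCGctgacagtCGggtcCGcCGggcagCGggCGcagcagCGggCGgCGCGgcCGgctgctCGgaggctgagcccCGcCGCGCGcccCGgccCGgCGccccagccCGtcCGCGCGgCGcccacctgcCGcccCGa
The Cited1 stretch holds 13 CpG and the Wnt4 stretch 44. Over the whole windows of 300 bases, which add 50 bases after the start, Wnt4 had 51 CpG and stood at the percentile 99.4 of 32851 RefSeq windows. The 3 Cited1 windows had 18, 14 and 32 CpG, at the percentiles 71.1, 64.5 and 91.0. Of the other members, Foxa1 had 26, Areg 21, Tnfsf11 7, Pgr 6, and the 2 Esr1 windows 6 and 12. The core oestrogen receptor motif GGTCA, searched on both strands, occurred once in the Cited1 stretch, 189 bases before the start, where it reads tgacc on the strand printed. It also occurred once in the third Cited1 window, the first Esr1 window and the windows of Foxa1 and Areg. It was not found in the windows of Wnt4, Pgr or Tnfsf11, and 40.5% of all windows hold it. Neither the full element (GGTCA, any 3 bases, TGACC, held by 0.07% of windows) nor the core progesterone receptor motif AGAACA (held by 19%) was found in a window of any member. A match is a description of letters, and methylation and receptor binding were not measured here.

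Cited1 fell with both drugs under the pregnant label. Its levels were 6.93 and 6.39 on the PBS arrays, 4.80, 5.05 and 3.94 on the AzaC arrays and 4.79, 4.37 and 5.84 on the VPA arrays. Every drug array was below both PBS arrays, and VPA replicate 3 came closest to them. Cited1 fell by 2.06 ± 0.43 (SE) with AzaC, from a mean of 6.66 ± 0.38 (SD, n = 2) to 4.60 ± 0.58 (SD, n = 3), with a 95% interval of -3.01 to -1.11 (adjusted p = 0.0221). With VPA it fell by 1.66 ± 0.43 (SE), to 5.00 ± 0.76 (SD, n = 3), with an interval of -2.61 to -0.71 (adjusted p = 0.0475). It ranked at 304 of 12393 genes by p with AzaC and at 694 with VPA.

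The Cited1 calls were not kept in every analysis, although the change stayed between -2.33 and -1.64 with AzaC and between -2.08 and -1.34 with VPA. With AzaC the adjusted p was 0.151 without PBS replicate 1, 0.0910 without PBS replicate 2, 0.0580 without AzaC replicate 1, 0.0733 without AzaC replicate 3 and 0.0785 with only the 5 arrays compared. With VPA it was 0.255 without PBS replicate 1, 0.146 without PBS replicate 2, 0.107 without VPA replicate 1, 0.125 without VPA replicate 2 and 0.134 with only the 5 arrays compared. The mean levels of several marker lists rose on the arrays where Cited1 fell, and those of the basal markers overlapped between drug and PBS. The counts called in these marker lists stand beside 7.57% of all genes with AzaC and 5.98% with VPA. The mean level of 4 luminal progenitor markers (Kit, Aldh1a3, Cd14, Elf5) was 8.33 to 8.86 on the PBS arrays labelled pregnant, 11.43 to 12.03 with AzaC and 11.24 to 11.80 with VPA. Of these 4, Kit, Aldh1a3 and Cd14 rose with AzaC, and Kit and Cd14 with VPA, calls that also ended without either PBS array. The mean level of the luminal markers was 11.55 to 11.56 with PBS, 12.34 to 12.67 with AzaC and 12.40 to 12.85 with VPA, with 0 of 6 and 1 of 6 (Cdh1) called. Cldn3 was the luminal marker that did not rise in the mean, changing by -0.20 with AzaC and -0.02 with VPA. The mean level of 7 basal markers was 9.59 to 9.81, 9.48 to 9.76 and 9.58 to 10.09, with 0 of 7 called for either drug. That of 6 fibroblast markers was 9.87 to 10.06, 10.30 to 11.14 and 10.51 to 11.52, with 0 of 6 and 1 of 6 (Dcn) called, and that of 5 endothelial markers was 7.06 to 7.95, 8.26 to 9.08 and 8.26 to 9.07, with Cldn5 called for both drugs. That of 4 macrophage and leukocyte markers was 7.64 to 7.67, 8.12 to 8.41 and 8.06 to 8.65, and that of 3 adipocyte markers was 10.52 to 10.88, 10.48 to 11.57 and 11.09 to 11.38, with 0 called in either list. The part of these shifts in the fall of Cited1 was not tested.

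**Figure D3:**
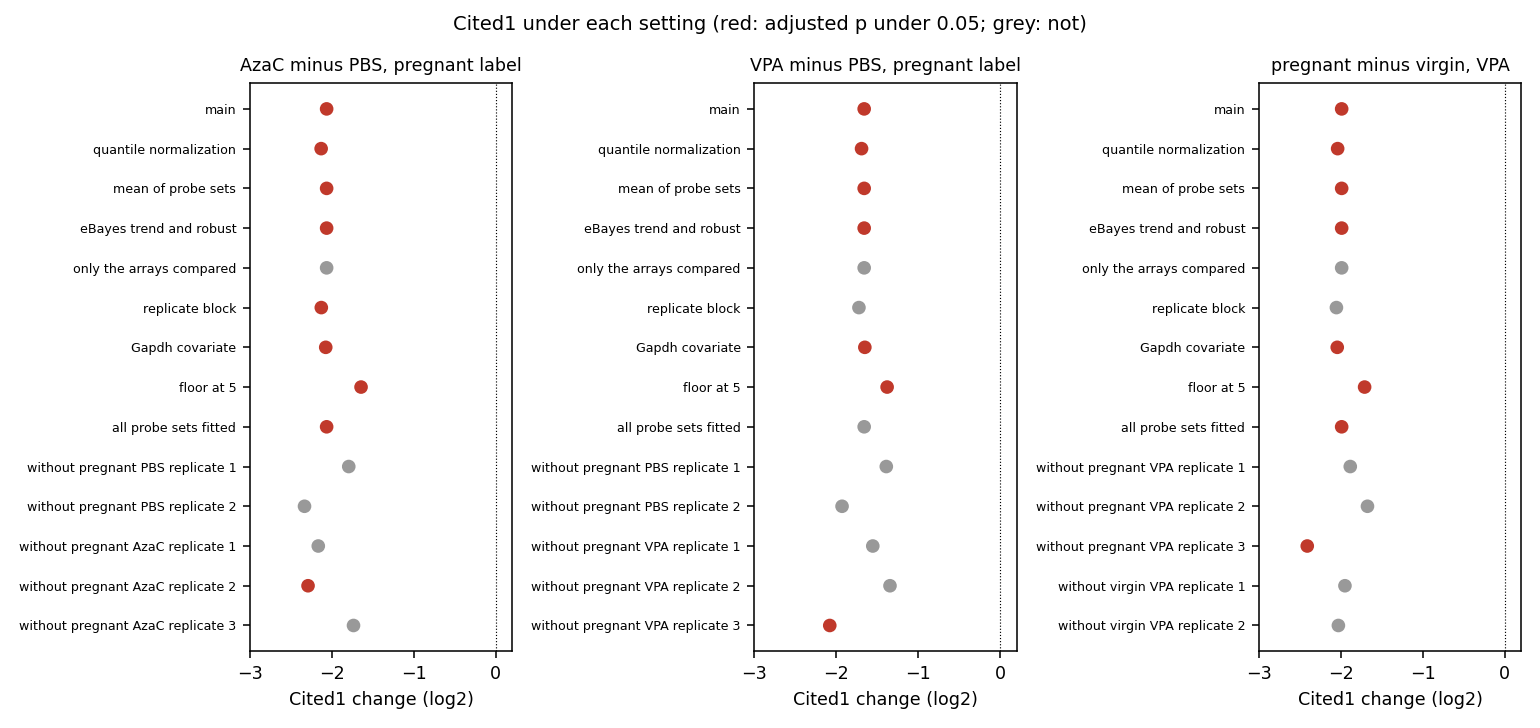
Change of Cited1 (x axis, log2) in each analysis (y axis) for AzaC and for VPA against PBS under the pregnant label and for the pregnant against the virgin label under VPA. Red points passed an adjusted p under 0.05 and grey points did not. All points lie below 0, and leaving out either PBS replicate turns the drug comparisons grey.

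Under the virgin label Cited1 did not pass with either drug. Its levels were 5.99 and 6.17 with PBS, 5.43, 6.22 and 6.13 with AzaC, and 7.03 and 6.95 with VPA. The AzaC and PBS arrays overlapped, and both VPA arrays were above all others of that label. The change was -0.15 with AzaC (95% interval -1.10 to 0.80, adjusted p = 0.955) and 0.91 with VPA (-0.13 to 1.95, adjusted p = 0.735), so neither passed. The difference between the drug effects of the labels was tested itself. For AzaC it was -1.91 ± 0.61 (SE, interval -3.25 to -0.57, adjusted p = 0.236), in a comparison in which 0% of all genes and 0 of 6 members were called, and in which 1587 genes, Cited1 among them, had an unadjusted p under 0.05. For VPA it was -2.57 ± 0.64 (SE, interval -3.98 to -1.16, adjusted p = 0.0834), where 0.315% of all genes and 0 of 6 members were called. In that VPA comparison 1 member, Cited1, had an unadjusted p under 0.05, as had 2340 of all genes. With values under 5 set to 5, the VPA difference of Cited1 passed at -2.29 (adjusted p = 0.0483), the only 1 of 17 alternatives in which it did. That floor set the pregnant VPA values 4.79 and 4.37 both to 5, so it altered the spread within groups as well as the difference.

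Ordered by their means, the groups ran for Cited1 from virgin VPA (6.99 ± 0.06, n = 2) through pregnant PBS (6.66), virgin PBS (6.08 ± 0.13, n = 2), virgin AzaC (5.93 ± 0.43, n = 3) and pregnant VPA (5.00) to pregnant AzaC (4.60), with SDs as errors. Pregnant PBS was above virgin PBS by 0.58 (95% interval -0.46 to 1.62, adjusted p = 1), and 0 of 6 members were called between these labels, with 0.00807% of all genes. At an unadjusted p under 0.05 that comparison gave 0 of 6 members and 521 of all genes. Pregnant VPA and pregnant AzaC overlapped and differed by 0.40 (AzaC minus VPA -0.40, interval -1.25 to 0.45). Under VPA, Cited1 fell by 1.99 ± 0.43 (SE, adjusted p = 0.0275) from the virgin to the pregnant label, the only call among 6 members where 6.66% of all genes were called. That adjusted p was 0.176 without virgin VPA replicate 1, 0.122 without virgin VPA replicate 2, 0.0737 without pregnant VPA replicate 1, 0.0703 without pregnant VPA replicate 2 and 0.0853 with only the 5 arrays compared. Under AzaC the same difference was -1.33 ± 0.39 (SE, adjusted p = 0.118), with 0 of 6 members called and 1.23% of all genes. There 2 members, Cited1 and Wnt4, had an unadjusted p under 0.05, as had 2283 of all genes.

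Wnt4, the secreted ligand that carries the progesterone signal to basal cells, was higher on every drug array than on the PBS arrays under the pregnant label, but did not pass the test. Its levels were 7.31 and 6.83 with PBS, 7.96, 7.59 and 7.45 with AzaC and 7.53, 7.91 and 8.42 with VPA. In the virgin groups they were 6.90 and 7.17 with PBS, 7.08, 7.0 and 7.24 with AzaC and 6.77 and 7.32 with VPA, and the groups overlapped. The change under the pregnant label was 0.60 ± 0.28 (SE) with AzaC (95% interval -0.02 to 1.21, adjusted p = 0.202) and 0.88 ± 0.28 (SE) with VPA (0.27 to 1.50, adjusted p = 0.0852). On the virgin arrays it was 0.07 (-0.54 to 0.68) and 0.01 (-0.66 to 0.68). The difference between the labels' effects was 0.53 for AzaC (-0.34 to 1.39, adjusted p = 0.605) and 0.87 for VPA (-0.03 to 1.78, adjusted p = 0.282). The VPA change under the pregnant label passed in only 1 of 13 alternatives. That was with the Gapdh 3' to 5' difference as a covariate, at 0.89 (adjusted p = 0.0420). Between the labels under VPA the difference was 0.91 (adjusted p = 0.0727). It passed in only 2 of 13 alternatives, with the covariate at 0.84 (adjusted p = 0.0491) and with trended, robust variances (adjusted p = 0.0498).

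Separation of the groups was common in these data. Under the pregnant label 4 of 6 members did not overlap between AzaC and PBS (Pgr and Wnt4 higher, Cited1 and Tnfsf11 lower), beside 44.4% of all genes. Between VPA and PBS 2 of 6 did not (Wnt4 higher, Cited1 lower), beside 43.3%. Under the virgin label 1 of 6 did not overlap with AzaC (Tnfsf11 lower), beside 18.3%, and 3 of 6 with VPA (Cited1 higher, Foxa1 and Tnfsf11 lower), beside 35.8%.

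Tnfsf11 encodes RANKL, the secreted or membrane-bound ligand that drives luminal progenitors and alveolar growth, and it was read by 2 probe sets that did not move together. The brighter stood for the gene. Its levels under the virgin label were 5.26 and 5.97 with PBS, 4.98, 4.53 and 3.81 with AzaC and 3.72 and 4.65 with VPA. Both PBS arrays were above all drug arrays of that label. The change was -1.18 ± 0.44 (SE) with AzaC (95% interval -2.15 to -0.20, adjusted p = 0.714) and -1.43 ± 0.49 (SE) with VPA (-2.50 to -0.36, adjusted p = 0.607), so neither passed over all genes. Under the pregnant label its levels were 5.27 and 4.97 with PBS, 4.61, 4.91 and 4.18 with AzaC and 4.97, 4.08 and 5.30 with VPA, with changes of -0.55 (-1.53 to 0.42) and -0.34 (-1.31 to 0.64). The AzaC arrays were below the PBS arrays and the VPA arrays overlapped them. The dimmer probe set lay between 2.81 and 4.38 over all 15 arrays. Its changes under the virgin label were 0.48 with AzaC (-0.38 to 1.35) and -0.19 with VPA (-1.14 to 0.76), and under the pregnant label 0.23 and -0.27. Over the 15 arrays the correlation between the probe sets was r = -0.09, a description of dim probe sets on the same samples. With their mean in place of the brighter, the Tnfsf11 change under the virgin label was -0.35 with AzaC and -0.61 with VPA.

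The receptors themselves did not pass in any comparison. Esr1 was at 6.26 and 5.21 with PBS under the pregnant label, at 4.94, 5.57 and 5.70 with AzaC and at 6.07, 5.39 and 4.95 with VPA. In the virgin groups it was at 6.30 and 5.55 with PBS, at 6.43, 5.76 and 5.82 with AzaC and at 5.73 and 5.61 with VPA. The drug groups overlapped the PBS groups under both labels, and the PBS replicates of the pregnant label alone differed by over 1. The Esr1 change under the pregnant label was -0.33 with AzaC (95% interval -1.23 to 0.56, adjusted p = 0.660) and -0.27 with VPA (-1.16 to 0.63, adjusted p = 0.741). On the virgin arrays it was 0.08 (-0.82 to 0.97) and -0.26 (-1.24 to 0.73). Over the 4 drug comparisons the intervals reached from -1.24 to 0.97. Under AzaC all 3 pregnant arrays were below all 3 virgin arrays, by 0.60 in the mean (interval -1.40 to 0.20, adjusted p = 0.406). In that comparison 3 of 6 members (Esr1, Cited1 and Wnt4) did not overlap between the labels, beside 22.8% of all genes.

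Pgr was at 1.40 and 3.35 with PBS under the pregnant label, at 3.49, 3.47 and 3.53 with AzaC and at 4.41, 3.03 and 2.78 with VPA. On virgin arrays it was at 3.41 and 4.12 with PBS, at 3.74, 1.29 and 4.93 with AzaC and at 3.73 and 2.60 with VPA. The lowest values, 1.40 and 1.29, came from single arrays of groups whose other arrays were at 3.35 or above. The Pgr change under the pregnant label was 1.12 ± 0.92 (SE) with AzaC (95% interval -0.89 to 3.13, adjusted p = 0.483) and 1.03 ± 0.92 (SE) with VPA (-0.98 to 3.04, adjusted p = 0.530). Without pregnant PBS replicate 1 these changes were 0.15 and 0.06, and with values under 5 set to 5 both were 0, since no Pgr value reached 5. In the virgin groups the change was -0.45 (-2.46 to 1.57) with AzaC and -0.60 (-2.80 to 1.60) with VPA.

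Foxa1, the chromatin factor that partners Esr1, was at 6.11 and 6.23 with PBS under the pregnant label, at 6.76, 6.15 and 7.29 with AzaC and at 6.40, 6.20 and 6.58 with VPA. With the virgin label it was at 6.24 and 6.63 with PBS, at 6.00, 6.60 and 6.27 with AzaC and at 6.20 and 6.08 with VPA. AzaC replicates 1 and 3 of the pregnant label were the highest of all 15 arrays. The Foxa1 change under that label was 0.56 (95% interval -0.08 to 1.21, adjusted p = 0.253) with AzaC and 0.22 (-0.42 to 0.87, adjusted p = 0.692) with VPA. On virgin arrays it was -0.15 (-0.79 to 0.50) and -0.30 (-1.003 to 0.41).

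AzaC and VPA were also compared directly. Under the pregnant label limma called 0 of 6 members and 0% of all genes, and an unadjusted p under 0.05 was reached by 0 of 6 members and by 468 of all genes. The difference, AzaC minus VPA, was -0.29 for Wnt4 (95% interval -0.83 to 0.26), 0.34 for Foxa1 (-0.24 to 0.92), -0.22 for Tnfsf11 (-1.09 to 0.65) and -0.07 for Esr1 (-0.87 to 0.74). On virgin arrays limma again called 0 of 6 members and 0% of all genes, and 813 genes of all had an unadjusted p under 0.05. Cited1 was the member among these, lower by 1.06 with AzaC than with VPA (AzaC minus VPA -1.06, interval -2.01 to -0.11, adjusted p = 0.744).

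Across the 15 arrays the members did not follow each other closely. These correlations describe arrays that share groups, and no test was made of them. The lowest was r = -0.57 between Esr1 and Wnt4, and the highest r = 0.29 between Foxa1 and Wnt4. Esr1 and Pgr had r = 0.01. Cited1 had r = -0.52 with Wnt4 and r = -0.51 with Foxa1. Among 6115 genes at or above the median of gene means, the pattern most like that of Cited1 was that of Sec14l2 (r = 0.95), which encodes a lipid-binding protein. Krtcap3 (r = 0.93) and Psat1 (r = 0.93), an enzyme of serine synthesis, came next. Genes with a pattern like that of Wnt4 included Rrp36 (r = 0.93) and Sh3yl1 (r = 0.90). For Esr1 they were Setd1a (r = 0.89), Siae (r = 0.88) and Mtrr (r = 0.86), and for Foxa1 Tpcn1 (r = 0.85), Nfic (r = 0.84) and Myadm (r = 0.84). For Tnfsf11 they were Hoga1 (r = 0.82), Itga9 (r = 0.74) and P4ha2 (r = 0.74), and for Pgr Gimap4 (r = 0.64), Ehd2 (r = 0.64) and Cdk12 (r = 0.60).

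The other genes of the pathway were taken from 7 lists, which were described by counts and medians. Of all genes, 7.57% were called with AzaC and 5.98% with VPA under the pregnant label. Of 9 NR3 receptors, the nuclear receptor family of Esr1 and Pgr, 7 were measured and 0 passed against PBS in any of the 4 drug comparisons. The glucocorticoid receptor Nr3c1 changed by -0.71 ± 0.25 (SE, adjusted p = 0.109) with AzaC and by -0.87 ± 0.25 (SE, adjusted p = 0.0658) with VPA under the pregnant label. It fell by 1.09 (adjusted p = 0.0333) from the virgin to the pregnant label under VPA. That call was lost with the mean of its probe sets (adjusted p = 0.220), and without either virgin VPA array (0.176 and 0.161), pregnant VPA replicate 2 (0.0612) or pregnant VPA replicate 3 (0.0554). It was also lost with only the arrays compared and with a block on the replicate number. Of 14 other hormone-sensing cell genes 11 were measured, and 1 fell with AzaC and 0 passed with VPA under the pregnant label. That gene was Stc2, a secreted glycoprotein, at 8.05 and 7.98 in PBS and 6.78 to 7.21 with AzaC, and it fell by 0.98 ± 0.20 (SE, adjusted p = 0.0188). With VPA Stc2 changed by -0.74 (adjusted p = 0.0510). With its probe sets averaged, the AzaC change of Stc2 was -0.69 (adjusted p = 0.0514). The median change of the list was 0.12 with AzaC and 0.27 with VPA, beside 0.04 and 0.06 over all genes.

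Of 14 receptor chaperones and coregulators 10 were measured. With AzaC under the pregnant label 3 rose and 0 fell, and with VPA 2 rose and 0 fell, beside 7.57% and 5.98% of all genes called. Fkbp5, a cochaperone of steroid receptors, rose by 1.73 ± 0.46 (SE, adjusted p = 0.0453) with AzaC and by 1.78 ± 0.46 (SE, adjusted p = 0.0468) with VPA. Pgrmc1, a membrane haem-binding protein named for progesterone binding, rose by 1.17 (adjusted p = 0.0460) and 1.31 (adjusted p = 0.0376). Cited2, a relative of Cited1 that binds the same coactivators, rose by 1.03 (adjusted p = 0.0375) with AzaC, against the fall of Cited1, and changed by 0.84 (adjusted p = 0.0821) with VPA. The list's median change was 0.60 with AzaC and 0.52 with VPA. With a gene's probe sets averaged, Fkbp5 no longer passed with AzaC (adjusted p = 0.103) or VPA (adjusted p = 0.108), nor Cited2 with AzaC (adjusted p = 0.0855). With values under 5 set to 5, Fkbp5 did not pass with AzaC (adjusted p = 0.0590) or VPA (adjusted p = 0.0605), nor Pgrmc1 with AzaC (adjusted p = 0.0534). With all probe sets fitted the same 3 calls were lost, and with only the 5 arrays compared that of Pgrmc1 with VPA (adjusted p = 0.0525).

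**Figure D4:**
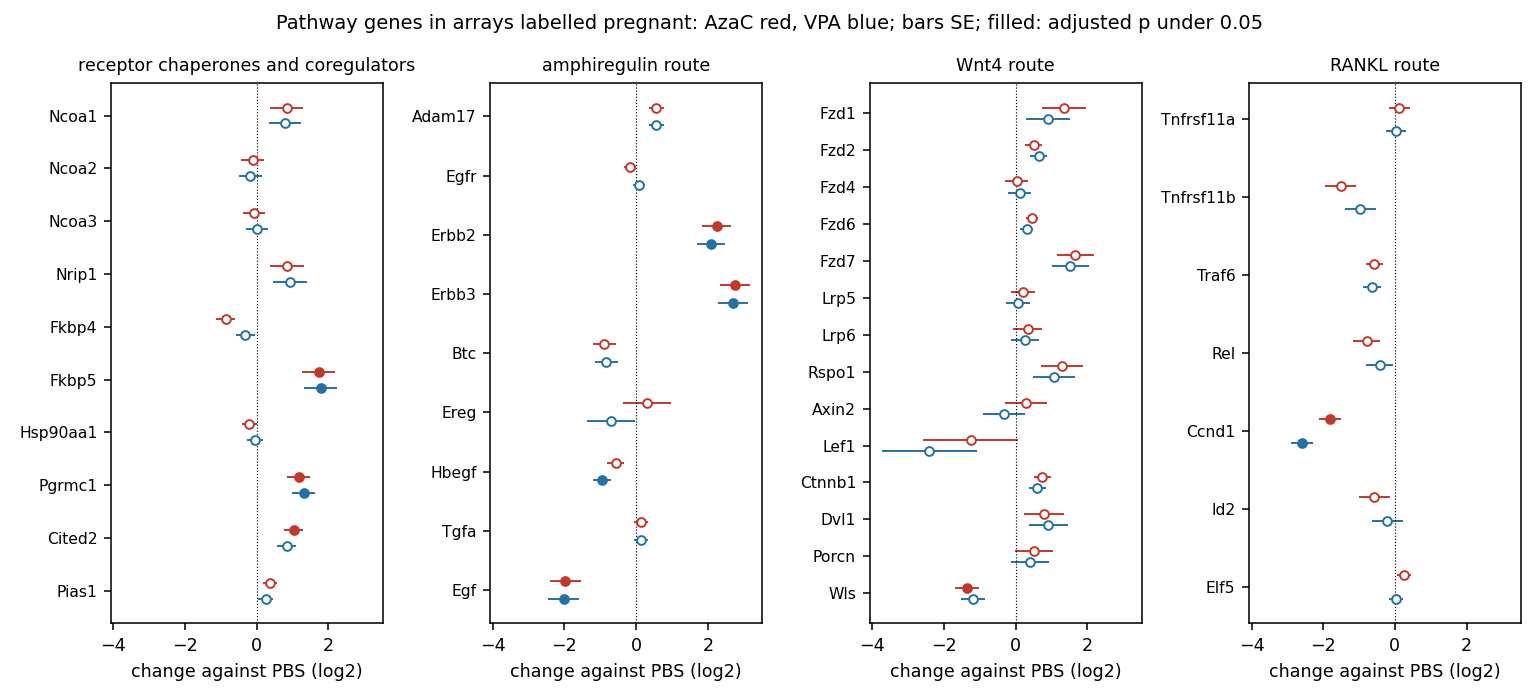
Change against PBS under the pregnant label (x axis, log2) of the measured genes of 4 pathway lists (y axis), AzaC in red and VPA in blue, with SE bars. Filled points passed an adjusted p under 0.05. Erbb2 and Erbb3 lie above 2 and Egf near -2 for both drugs, and Ccnd1 lies at -1.80 with AzaC and -2.60 with VPA.

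Amphiregulin is shed by the protease Adam17 and acts on Egfr, and all 9 genes listed for this route were measured. With AzaC under the pregnant label 2 rose and 1 fell, and with VPA 2 rose and 2 fell, beside 7.57% and 5.98% of all genes called. Erbb3, a receptor that pairs with the other family members, was at 8.77 to 9.03 in PBS and 11.07 to 12.06 with AzaC. It rose by 2.76 ± 0.41 (SE, adjusted p = 0.0100) with AzaC and by 2.70 ± 0.41 (SE, adjusted p = 0.0112) with VPA. Erbb2 rose by 2.24 (adjusted p = 0.0129) and 2.09 (adjusted p = 0.0190). The ligand Egf fell by 1.97 (adjusted p = 0.0230) with AzaC and fell by 2.02 (adjusted p = 0.0250) with VPA, and the ligand Hbegf fell by 0.95 (adjusted p = 0.0420) with VPA. Egfr itself changed by -0.17 (adjusted p = 0.555) and 0.08 (adjusted p = 0.808). With a gene's probe sets averaged, Erbb3 did not pass with AzaC (1.39, adjusted p = 0.112), nor Hbegf with VPA (adjusted p = 0.0609).

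Of 16 genes of the Wnt4 route 14 were measured. The counts of this paragraph under the pregnant label also stand beside 7.57% of all genes called with AzaC and 5.98% with VPA. With AzaC under the pregnant label 0 rose and 1 fell, Wls, the carrier that brings Wnt ligands to the cell surface, by 1.35 ± 0.33 (SE, adjusted p = 0.0339). With VPA 0 of 14 passed, and Wls changed by -1.19 (adjusted p = 0.0572). Axin2, a target of Wnt signalling, changed by 0.30 (adjusted p = 0.798) and -0.31 (adjusted p = 0.793). Of 9 genes of the RANKL route 7 were measured, and 1 fell with each drug, Ccnd1, which encodes cyclin D1. It was at 11.87 and 12.00 in PBS, 9.68 to 10.48 with AzaC and 8.88 to 9.58 with VPA. Ccnd1 fell by 1.80 ± 0.31 (SE, adjusted p = 0.0121) with AzaC and by 2.60 ± 0.31 (SE, adjusted p = 0.00616) with VPA. The VPA effect on Ccnd1 differed between the labels by -2.97 ± 0.46 (SE, adjusted p = 0.0325), a call lost on leaving out pregnant PBS replicate 1 (adjusted p = 0.0840) or 2 (0.103), pregnant VPA replicate 1 (0.0615), 2 (0.0641) or 3 (0.0555), virgin PBS replicate 1 (0.0687), or virgin VPA replicate 1 (0.138) or 2 (0.0706). The receptor Tnfrsf11a changed by 0.12 and 0.03, and the decoy receptor Tnfrsf11b by -1.51 (adjusted p = 0.0563) and -0.97 (adjusted p = 0.196). Of 10 steroid-responsive genes 9 were measured, and with each drug 1 rose (Fkbp5) and 1 fell (Ccnd1), both also counted in a list above. The oestrogen target Greb1 changed by 0.05 (adjusted p = 0.969) with AzaC and 0.47 (adjusted p = 0.669) with VPA. Median changes with AzaC and VPA were -0.14 and -0.24 for the NR3 receptors and 0.14 and 0.08 for the amphiregulin route. They were 0.48 and 0.35 for the Wnt4 route, -0.575 and -0.43 for the RANKL route and 0.055 and 0.36 for the steroid-responsive genes.

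The lists' calls rest on few arrays, the PBS arrays above all, and many were also lost without a single drug array. Of the 9 genes of these lists called with AzaC under the pregnant label, 0 passed without PBS replicate 1, 0 without PBS replicate 2 and 0 with only the 5 arrays compared. Without AzaC replicate 1, 4 of them passed (Ccnd1, Erbb2, Erbb3, Stc2), without AzaC replicate 3, 2 passed (Ccnd1, Erbb3), and without AzaC replicate 2, 8 passed. Of the 7 called with VPA, 1 passed without PBS replicate 1 (Ccnd1) and 0 without PBS replicate 2, where Ccnd1 had an adjusted p of 0.0501. With only the 5 arrays compared, 5 of these 7 passed (Ccnd1, Egf, Erbb2, Erbb3, Fkbp5). On leaving out VPA replicate 1 or 2, Ccnd1, Erbb2 and Erbb3 passed, and on leaving out VPA replicate 3, Ccnd1, Egf and Erbb3 passed. None of the listed genes passed in a drug comparison under the virgin label, in which 0% and 0.00807% of all genes did. Under VPA 7 listed genes differed between the labels, in a comparison in which 6.66% of all genes were called. Erbb3 (2.45, adjusted p = 0.0160), Erbb2 (1.52, adjusted p = 0.0445) and Fzd2, a Wnt receptor (0.93, adjusted p = 0.0421), were higher under the pregnant label. Ccnd1 (-1.96, adjusted p = 0.0148), Egf (-1.93, adjusted p = 0.0278), Stc2 (-0.85, adjusted p = 0.0318) and Nr3c1 were lower. None of these 7 passed without virgin VPA replicate 1 or without virgin VPA replicate 2. Under AzaC Egf (-1.84, adjusted p = 0.0453) and Stc2 (-0.85, adjusted p = 0.0467) were lower under the pregnant label, where 1.23% of all genes were called. With a gene's probe sets averaged, the Erbb3 difference under VPA was 1.70 (adjusted p = 0.0651), and the Stc2 difference was -0.53 (adjusted p = 0.117) under VPA and -0.50 (adjusted p = 0.174) under AzaC. Both Egf and Stc2 were called under AzaC without pregnant AzaC replicate 2, and neither was called when any 1 of the other 5 arrays of that comparison was left out. Neither was called there with quantile normalization, with all probe sets fitted, with only the arrays compared or with a block on the replicate number.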

How the data were processed

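Members, lists and comparisons were chosen with earlier results of these data known. The deposited table holds log2 values made by the authors, 22690 probe sets on 15 arrays. The log base was inferred from the range of the values, and summary and normalization methods are not given in the sources used here. Values were used as deposited. The platform annotation, dated 2016, gave a single symbol to 20380 probe sets, several to 691 and none to 1555, and 64 control probe sets were left out. Each of 12393 genes was represented by its probe set with the highest mean.

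The model gave each group a mean over all 15 arrays and used limma 3.58.1 (lmFit, eBayes) in R 4.3.3, with 9 residual and 2.31 prior degrees of freedom. It gave 11 comparisons, with two-sided tests, Benjamini-Hochberg adjustment and a threshold of 0.05. The fit was tested on simulated data, in which only genes at or above the median of gene means were given a change. All measured members lie below that median, so the simulation does not show how well their changes are found. Confidence intervals are at 95% and unadjusted for the number of genes. Lists got no test. Every measured member was named, as were, per list, at most 4 called genes with the largest change and, per member, the 3 genes with the highest correlation over 15 arrays, of which 1 is not reported here. Other listed genes were named after their values were seen (Cited2 and Wls with VPA, Nr3c1, Egfr, Axin2, Greb1, Tnfrsf11a and Tnfrsf11b against PBS).

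Alternatives were quantile normalization, a filter on genes below the median of gene means (7.79), averaging a gene's probe sets, trended robust variances, a fit to only the arrays compared, a block on the replicate number, the Gapdh 3' to 5' difference as a covariate, a floor at 5, and each array left out in turn. Fitting all probe sets was added after the data were seen. Figures were drawn with matplotlib 3.10.9.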

Additional observations from a re-analysis of the deposited data

How the results depend on the processing

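Limits: groups held 2 or 3 arrays, most members were dim, and no detection calls were given, so a change of a dim member can be understated or missed. The fall of Cited1 under the pregnant label kept its direction with both drugs in every alternative. With each drug its call was lost without either PBS array, and also without some single drug arrays and in some other analyses. Causes of the moves below were not tested. The filter on dim genes removes all 6 measured members, so it gives no value for them.

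Counts of members called moved as follows. With only the arrays compared, 0 members were called for AzaC and for VPA under the pregnant label and for the label difference under VPA. With all probe sets fitted, 0 were called for VPA under the pregnant label. With the Gapdh covariate 2 were called for VPA under the pregnant label and 2 for the label difference under VPA, where trended robust variances also gave 2. With a floor at 5, 1 was called for the difference of the VPA effects. Leaving out single arrays gave 0 to 1 member in each of the 3 comparisons with a call and 0 in the other 8.

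Counts over all genes moved too. For AzaC under the pregnant label they were 0 with only the arrays compared and 1623 with the Gapdh covariate, and for VPA 364 and 1233. For AzaC under the virgin label the floor gave 4. For VPA under the virgin label quantile normalization gave 2, the floor 5, all probe sets fitted 3, and the filter on dim genes, trended robust variances and only the arrays compared 0. For the label difference under PBS the covariate gave 2, the floor 4, and those last 3 settings 0. For the label difference under AzaC quantile normalization gave 4, the filter 398, trended robust variances 271, only the arrays compared 2, the covariate 359 and the floor 258. For the label difference under VPA only the arrays compared gave 421 and the covariate 1318. For AzaC against VPA under the virgin label only the arrays compared gave 1, the covariate 1 and the floor 2. The difference of the AzaC effects gave 29 with the filter, 1 with only the arrays compared and 49 with the floor. The difference of the VPA effects gave 240 with the filter, 242 with trended robust variances, 84 with only the arrays compared, 83 with the covariate and 147 with the floor.

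Leaving out single arrays, the count over all genes ranged from 14 to 1335 for AzaC and from 20 to 231 for VPA under the pregnant label, from 0 to 33 and from 0 to 39 under the virgin label, and between the labels from 1 to 22 with PBS, from 0 to 501 with AzaC and from 4 to 258 with VPA. It ranged from 0 to 2 and from 0 to 17 for AzaC against VPA under the pregnant and virgin labels, and from 0 to 42 and from 0 to 80 for the differences of the AzaC and VPA effects.

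The replicate block was tried although the labels do not say that the numbers pair the arrays. Over 33 pairs of arrays with the same number, the correlation of deviations lay between -0.457 and 0.681 and was over 0.1 in 14. Pairs with different numbers were not set beside these, and in groups of 2 arrays the deviations mirror each other. Whether the numbers mark arrays handled together was therefore not tested. With the block, the counts over all genes were 466 for AzaC and 241 for VPA under the pregnant label, 0 for VPA under the virgin label, 0, 64 and 239 between the labels with PBS, AzaC and VPA, and 0 for the difference of the VPA effects. Cited1 had an adjusted p of 0.0478 with AzaC, 0.0944 with VPA and 0.0631 between the labels under VPA, so that 0 members were called in the latter 2 comparisons. Of the listed genes called under the pregnant label, 4 of 9 passed with AzaC under the block (Ccnd1, Erbb2, Erbb3, Stc2) and 2 of 7 with VPA (Ccnd1, Erbb3). Under the block the AzaC minus VPA difference under the virgin label was -0.014 for Pgr and -0.0022 for Wnt4, and the difference of the VPA effects on Esr1 was 0.058.

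Some changes that had not passed the test turned their sign. With the mean of its probe sets, AzaC minus VPA under the pregnant label was 0.14 for Tnfsf11. With the Gapdh covariate, the AzaC change under the virgin label was -0.32 for Esr1, 0.013 for Cited1 and 0.0080 for Foxa1, and the differences of the AzaC and VPA effects on Esr1 were 0.014 and 0.38. With the floor, the difference of the VPA effects on Esr1 was 0.0067.

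Leaving out single arrays, the change crossed 0 in these uncalled comparisons. For Esr1 it spanned -0.94 to 0.12 for the difference of the AzaC effects, -0.86 to 0.19 for AzaC under the pregnant label, -0.30 to 0.45 for AzaC under the virgin label, -0.33 to 0.23 for AzaC minus VPA under the pregnant label, -0.71 to 0.34 for pregnant minus virgin with PBS, -0.50 to 0.06 for pregnant minus virgin with VPA, -0.54 to 0.52 for the difference of the VPA effects, -0.79 to 0.26 for VPA under the pregnant label and -0.63 to 0.12 for VPA under the virgin label. For Pgr it spanned -1.25 to 0.57 for AzaC under the virgin label, -0.22 to 0.59 for AzaC minus VPA under the pregnant label, -0.65 to 1.17 for AzaC minus VPA under the virgin label, -0.84 to 0.98 for pregnant minus virgin with AzaC and -0.32 to 0.81 for pregnant minus virgin with VPA. For Cited1 it spanned -0.30 to 0.10 for AzaC under the virgin label and -0.72 to 0.017 for AzaC minus VPA under the pregnant label. For Foxa1 it spanned -0.34 to 0.05 for AzaC under the virgin label and -0.005 to 0.29 for AzaC minus VPA under the virgin label. For Wnt4 it spanned -0.063 to 0.21 for AzaC under the virgin label, -0.21 to 0.34 for AzaC minus VPA under the virgin label, -0.20 to 0.28 for pregnant minus virgin with PBS and -0.27 to 0.28 for VPA under the virgin label. For Tnfsf11 it spanned -0.57 to 0.042 for AzaC minus VPA under the pregnant label, -0.21 to 0.72 for AzaC minus VPA under the virgin label, -0.19 to 0.40 for pregnant minus virgin with AzaC and -0.59 to 0.015 for VPA under the pregnant label.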
